A study of Mus musculus with 2 samples.

Results

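*Malat1* and *Neat1* are neighbouring genes for long noncoding RNAs on mouse chromosome 19, chosen by name and placed by the GENCODE M1 annotation of the mm9 genome. They are 2 of 37273 annotated genes on the autosomes and sex chromosomes, of which 14859 had at least 10 reads in the libraries together. The study separated RNA of mouse R1 male embryonic stem cells (ESCs) and of neuronal progenitor cells (NPCs) derived from them with oligo(dT) beads, and sequenced the non-polyadenylated (NPA) RNA that stayed unbound, keeping its strand. The ESCs were grown with leukemia inhibitory factor on Mitomycin C treated mouse embryonic fibroblasts. The NPCs spent 4 days as embryoid bodies without this factor, were then plated on poly-L-ornithine and fibronectin in medium with insulin, transferrin and selenium, and were gathered on day 7. Each cell type has 1 library and no replicate, so a ratio between them compares these libraries and not the cell types.

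The deposited placements total 4271306 reads in ESCs and 4399729 in NPCs, and levels are given as RPM, the reads scaled to a library of 1000000 reads. A single read is 0.234 RPM in ESCs and 0.227 RPM in NPCs. Intervals are exact 95% Poisson intervals for counts, Clopper-Pearson intervals for shares and conditional binomial intervals for ratios. They cover counting error only and treat each read as independent. Fragments copied by PCR carry no molecular identifiers, so copies count as separate reads and the intervals are too narrow to the extent that copies are present. In RNA of a whole culture, fewer cells of a type and less RNA per cell cannot be told apart. The cell labels were checked against marker genes of the NPA reads. Over all 14859 genes with at least 10 reads, 24.6% were more than 2-fold higher in NPCs and 12.8% in ESCs, and the marker counts stand beside these shares. All 12 markers of extraembryonic endoderm were more than 2-fold higher in NPCs, with a summed level of 808 RPM in ESCs and 15464 RPM in NPCs. Of the 10 measured pluripotency markers, 8 were more than 2-fold higher in ESCs, and the list summed to 2270 RPM there and 642 RPM in NPCs. Of the 9 annotated neural progenitor markers, 6 had at least 10 reads and 2 were more than 2-fold higher in NPCs. Their summed level was 172 RPM in ESCs and 233 RPM in NPCs, most of it from *Vim* with 469 reads in ESCs and 706 in NPCs. *Nes* had 66 and 121 reads, *Ncam1* 100 and 104, *Msi1* 99 and 60, *Pax3* 0 and 13, *Pax6* 1 and 12, *Sox3* 0 and 5, *Hes5* 1 and 2, and *Fabp7* 0 and 2. Of the 10 fibroblast markers, 7 had at least 10 reads, of which 2 were more than 2-fold higher in NPCs and 1 in ESCs, with a median log2 ratio of 0.54. The list summed to 469 RPM in ESCs and 273 RPM in NPCs, most of it from *Fn1* with 1815 reads in ESCs and 938 in NPCs, and *Lum* was at 0 in both. The library labelled NPC therefore held many more reads of endoderm genes than of neural genes. The part of these cells in the values of *Malat1* and *Neat1* was not tested.

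Both RNAs stay in the nucleus. *Malat1* collects at nuclear speckles, which hold splicing factors, and *Neat1* is the scaffold of paraspeckles, bodies that form around it as it is made. *Neat1* is made as a short polyadenylated RNA and as a long RNA from the same start. The 3′ end of *Malat1* and of long *Neat1* is not made by polyadenylation. RNase P, the enzyme that trims the 5′ ends of tRNAs, cuts just before a tRNA-like fold, which releases a small RNA (mascRNA from *Malat1*, menRNA from *Neat1*) and leaves an end guarded by a triple helix of U-rich and A-rich stretches.

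*Malat1* (ENSMUSG00000092341.1, annotated as a processed transcript) lies on the minus strand at chr19:5795690-5802671 and *Neat1* (ENSMUSG00000092274.1, of the same annotated type) on the same strand at chr19:5824708-5845478. The exons of *Malat1* cover 6982 nt and those of *Neat1* 20771 nt. The genes are 22036 nt apart, with *Neat1* upstream. Their 3′ ends were located by sequence, as a T loop motif with a T stem of 5 pairs and an acceptor stem of which at least 6 of 7 bases pair. One element per gene met this rule within 10000 nt of the annotated end, but the rule was set after the data were seen. The elements and the stretches before them are shown because they mark where the RNAs are known to be cut, and the reads at them are described after the levels. All 4 sequences are from mm9 and read 5′ to 3′ on the minus strand. The motif GTTCNANNC is in capitals. Its first and last bases are the closing pair of the T stem, and the T loop lies between them.
*Malat1* element, chr19:5795925-5795981: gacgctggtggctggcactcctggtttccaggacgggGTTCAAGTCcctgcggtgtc
*Neat1* element, chr19:5824652-5824707: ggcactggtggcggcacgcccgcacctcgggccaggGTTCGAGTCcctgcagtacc

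The *Malat1* element has 57 nt with 7 of 7 acceptor pairs and the *Neat1* element 56 nt with 6 of 7. In a global alignment 40 of 57 columns were identical, or 70.2%. The motif alone is common, since it occurred on the minus strand in 98.4% of 2905 windows of 20000 nt along the chromosome, and the full rule was met in 4.96% of them. The *Neat1* element begins at the base after the annotated end of the gene, while the *Malat1* element lies inside the annotated gene, with its first base as the base 292 from the annotated 3′ end. In the last 130 nt before each element, runs of 9 or more bases that both genes share are in capitals.
*Malat1* before the element, chr19:5795982-5796111: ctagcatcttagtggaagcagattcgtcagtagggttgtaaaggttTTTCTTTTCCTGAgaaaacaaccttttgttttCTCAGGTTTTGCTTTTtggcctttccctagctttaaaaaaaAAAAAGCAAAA
*Neat1* before the element, chr19:5824708-5824837: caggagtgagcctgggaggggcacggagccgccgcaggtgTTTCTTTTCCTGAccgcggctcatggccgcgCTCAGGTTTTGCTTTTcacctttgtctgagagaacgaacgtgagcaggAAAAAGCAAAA

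The genes share 3 such runs in the same order, TTTCTTTTCCTGA, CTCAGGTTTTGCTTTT and AAAAAGCAAAA. Those before the last are rich in T (U in the RNA), and the last is A-rich and ends at the base before the element in both genes.

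*Malat1* was abundant in the NPA RNA of both cell types, and *Neat1* had far fewer reads. *Malat1* had 11734 reads in ESCs (11523 to 11948) and 22988 in NPCs (22692 to 23287). Per length and depth, these are 393 RPKM (RPM per kb of exon) in ESCs and 748 RPKM in NPCs. The gene took 0.275% of all reads in ESCs and 0.522% in NPCs. *Neat1* had 255 reads in ESCs (225 to 288) and 1205 in NPCs (1138 to 1275), or 2.87 and 13.2 RPKM. The median of the 14859 genes was 4.75 RPKM in ESCs and 6.54 in NPCs, so *Neat1* lay below it in ESCs and above it in NPCs. Per nt, *Malat1* had 137 times the reads of *Neat1* in ESCs (121 to 156) and 56.8 times in NPCs (53.6 to 60.2).

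Both genes had more reads in NPCs. The ratio of NPC to ESC was 1.90 for *Malat1* (1.86 to 1.94), a log2 ratio of 0.93. For *Neat1* it was 4.59 (4.00 to 5.27), a log2 ratio of 2.20, and the counting intervals of the genes do not overlap. These ratios stand on a shift of the whole library, because the median log2 ratio of the 14859 genes was 0.34. Relative to that median gene, *Malat1* was 1.51 times and *Neat1* 3.63 times higher in NPCs. *Neat1* was past 2-fold and *Malat1* was not, beside 24.6% of all genes more than 2-fold higher in NPCs and 12.8% more than 2-fold higher in ESCs. The ratio of *Neat1* was above that of 94.4% of the genes and the ratio of *Malat1* above that of 72.9%.

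For *Malat1* the libraries differed more in the reads per start position than in the number of positions. The reads began at 1919 distinct positions in ESCs and 2389 in NPCs, which is 6.11 and 9.62 reads per position. The libraries as a whole had 1531216 distinct positions in ESCs and 1848069 in NPCs. When each position was counted once and scaled by these totals, the ratio of *Malat1* was 1.03 (0.971 to 1.10), with an interval that holds 1. The median log2 ratio of the 14859 genes also fell under this count, from 0.34 to 0.0047, so the drop is not particular to *Malat1*. This count is bounded by the length of the gene, of which 27.5% of positions were in use in ESCs and 34.2% in NPCs. Repeated fragments and abundant RNA cannot be told apart in these reads. *Neat1* had 190 distinct positions in ESCs and 703 in NPCs, and its ratio was 3.07 when each was counted once.

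Start positions of *Malat1* recurred between the libraries. The 3 positions with the most reads were the same in both, at nt 4653, 1333 and 5091 from the 5′ end. The position at nt 4653 had 387 reads in ESCs and 430 in NPCs, that at nt 1333 had 286 and 464, and that at nt 5091 had 225 and 478. In all, 1526 positions were used in both libraries, which is 79.5% of those in ESCs and 63.9% of those in NPCs. The 10 leading positions together held 15.6% of the *Malat1* reads in ESCs and 14.7% in NPCs. The most used position held 3.30% and 2.08%. *Neat1* shared 81 positions, 42.6% of those in ESCs and 11.5% of those in NPCs. Of all positions, 27.5% in ESCs and 34.2% in NPCs were in use in *Malat1*, against 0.915% and 3.38% in *Neat1*. The number that coincides without any preference rises with these shares and was not estimated, so the overlaps of the genes are not comparable.

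Among the 12683 genes of at least 1000 exonic nt and 10 reads, *Malat1* ranked 45 by RPKM in ESCs and 15 in NPCs, and *Neat1* ranked 7432 and 3307. Among all 14859 genes, which include short RNA genes, *Malat1* ranked 319 and 166 and *Neat1* 9390 and 4627. Among 264 genes annotated as lincRNA or processed transcript, *Malat1* ranked 11 in ESCs and 6 in NPCs, and *Neat1* 84 and 38. Several genes above *Malat1* there are hosts of small nucleolar RNAs, such as *Snhg1* and *Gas5*, whose reads include the small RNAs. Among the 194 such genes of at least 1000 nt with no small RNA annotated within them, a set chosen after the values were seen, *Malat1* ranked first in both libraries and *Neat1* ranked 40 and 16. The next gene in that set, *Gm15500*, had 206 RPKM in ESCs and 195 in NPCs.

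The genes nearest to each RNA in the plane of ESC and NPC levels were sought among 7881 genes of at least 1000 exonic nt and 100 reads. Nearest to *Malat1* were *Gm15725*, a pseudogene with 316 RPKM in ESCs and 661 in NPCs, *Hspa8*, a constitutive heat shock chaperone with 449 and 525 RPKM, and *Ubb*, a polyubiquitin gene with 434 and 507 RPKM. Reads of a pseudogene may belong to its parent, so the level of *Gm15725* is uncertain. Nearest to *Neat1* were *Sh3glb1*, an endophilin gene which had 2.94 and 13.7 RPKM, *Fam65a*, which had 2.73 and 13.6 RPKM, and *Alg2*, a mannosyltransferase gene with 2.78 and 12.6 RPKM. The distance in log2 RPKM over these 2 libraries was 0.36 to 0.58 for the neighbours of *Malat1* and 0.060 to 0.082 for those of *Neat1*, so *Malat1* stood in a sparser region.

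Along *Malat1*, reads covered the gene unevenly and in the same pattern in both libraries. The 13 whole bins of 500 nt held 128 to 1653 reads in ESCs (median 916) and 235 to 3305 in NPCs (median 1793), counted by the 5′ end of each read. The fullest bins were the same in both, from nt 4501 to 5000, where ESCs had 1653 reads and NPCs 3305, and from nt 1001 to 1500 with 1542 and 3123. The next was nt 6001 to 6500, which had 1392 and 2216. Between the fullest bins the counts sank to 437 in ESCs and 890 in NPCs at nt 3001 to 3500. Across the 13 bins Pearson's r between libraries was 0.97 and Spearman's rho 0.97, given as a description of bins that share sequence and base composition.

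**Figure D1:**
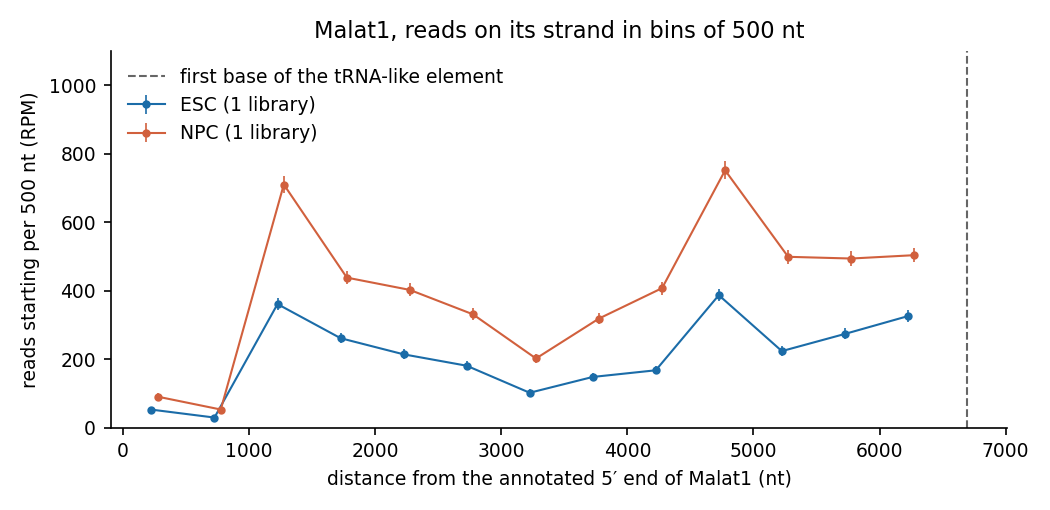
Reads starting in each whole 500 nt bin of *Malat1* on its strand (y axis, RPM) by distance from the annotated 5′ end (x axis, nt), with 1 library per cell type (ESC blue, NPC orange) and exact 95% Poisson intervals as bars. The dashed line is the first base of the tRNA-like element. Both libraries are low over the first 1000 nt and peak in the bins from nt 1001 to 1500 and from nt 4501 to 5000, and NPC lies above ESC in all 13 bins.

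All 13 bins had a ratio of NPC to ESC above 1, and the whole interval lay above 1 in all 13. The ratios ran from 1.55 at nt 6001 to 6500 to 2.43 at nt 4001 to 4500, with a median of 1.88. With each start position counted once, 9 of 13 bins were above 1.

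The 5′ end of *Malat1* was thin. The first 1000 nt held 355 reads in ESCs and 635 in NPCs, which per nt is 0.178 times the density of the rest up to the element in ESCs (0.159 to 0.197) and 0.162 times in NPCs (0.149 to 0.175). Reads were missing altogether from nt 556 to 703 and from nt 720 to 917 in both libraries. The deposited intervals at the edges of these gaps were shorter than their sequence, 45 and 9 of them at the first gap and 5 and 44 at the second. The authors filtered out reads in Repeat Masker regions, and whether the gaps are such regions was not tested. The gaps take 346 of the 1000 nt. Without them the density of the first 1000 nt was still 0.272 times that of the rest in ESCs and 0.247 times in NPCs. The first 500 nt, of which every start position had a sequence found once in the genome, held 227 reads in ESCs and 400 in NPCs, fewer than any whole bin beyond nt 1000.

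For *Neat1* the 41 whole bins held 0 to 20 reads in ESCs (median 5) and 4 to 87 in NPCs (median 26). The bins with 0 reads in ESCs lay side by side from nt 10501 to 11500, where NPCs had 7 and 4 reads. Of the 39 bins with reads in both libraries, all 39 had a ratio above 1 and in 35 the whole interval lay above 1. The ratios ran from 1.94 at nt 20001 to 20500 to 29.1 at nt 17501 to 18000, which rests on 1 read in ESCs and 30 in NPCs. The fullest bins in ESCs were nt 1501 to 2000 with 20 reads, nt 1001 to 1500 with 18 and nt 3001 to 3500 with 16. In NPCs they were nt 18001 to 18500 with 87, nt 2501 to 3000 with 73 and nt 501 to 1000 with 66. The peak at nt 18001 to 18500 leaned on 1 start position at nt 18172, which had 42 reads in NPCs and 0 in ESCs.

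**Figure D2:**
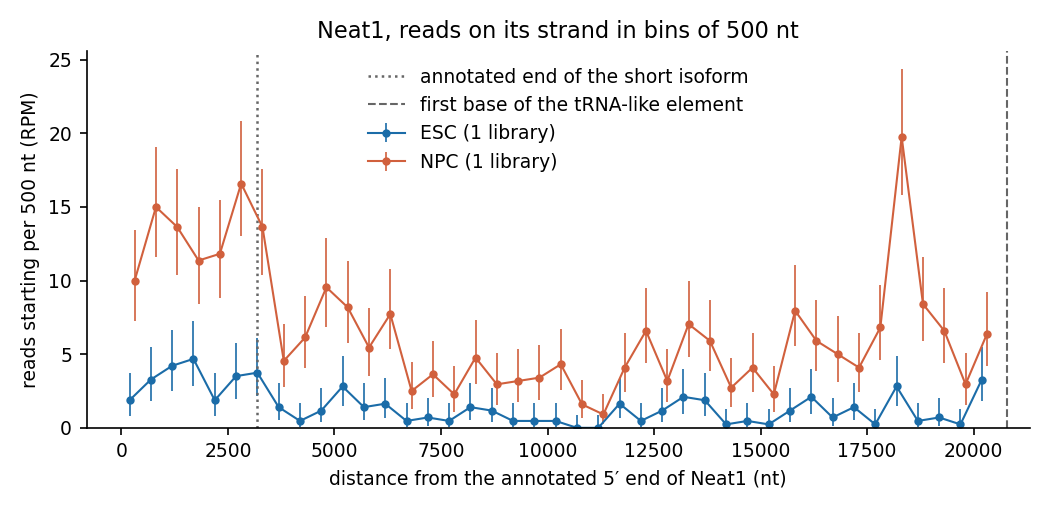
Reads starting in each whole 500 nt bin of *Neat1* on its strand (y axis, RPM) by distance from the annotated 5′ end (x axis, nt), with 1 library per cell type (ESC blue, NPC orange) and exact 95% Poisson intervals as bars. The dotted line is the annotated end of the short isoform and the dashed line the first base of the tRNA-like element. Bins before the dotted line are higher than most bins after it in both libraries, and reads continue to the far end of the long isoform.

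The stretch that the short and long RNAs share was denser than the stretch of the long RNA alone. The short transcript Neat1-002 ends 3172 nt from the 5′ end. This span held 92 reads in ESCs (74.2 to 113) and 383 in NPCs (346 to 423), or 29.0 and 121 reads per kb. The other 17599 nt held 163 reads in ESCs (139 to 190) and 822 in NPCs (767 to 880), or 9.26 and 46.7 reads per kb. The shared span was thus 3.13 times denser in ESCs (2.40 to 4.07) and 2.59 times in NPCs (2.28 to 2.92), and these intervals overlap. Reads of the shared span cannot be assigned to either RNA, so the excess is not a count of short RNA. The densities use all positions of each span and are not corrected for filtered repeat regions. Intervals shorter than their sequence made up 26 of 255 *Neat1* reads in ESCs and 114 of 1205 in NPCs. Over each whole library they made up 3.77% and 4.23%. The bins at nt 11001 to 11500 and nt 12501 to 13000 had the fewest start positions with a sequence found once in the genome. Both lie outside the shared span. The part of the filtering in the excess was not tested.

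Both spans had more reads in NPCs. The ratio of NPC to ESC was 4.04 in the shared span (3.21 to 5.13) and 4.90 in the rest (4.13 to 5.83), with overlapping intervals. The count of the long RNA's own span was 4.90 times higher, so the NPC excess did not rest on the shared span. The 500 nt before the end of the short transcript held 20 reads in ESCs and 74 in NPCs. The 500 nt after it held 7 and 29. In ESCs 0 reads crossed this end by 5 bases, and in NPCs 1 did.

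Within the long RNA's own span the density was lowest in the middle. Cut into 3 equal parts, it held from 5′ to 3′ 10.7, 6.82 and 10.2 reads per kb in ESCs and 47.2, 34.8 and 58.1 in NPCs. In NPCs the middle part with 204 reads (177 to 234) lay below the last with 341 (306 to 379), and in ESCs the intervals of 40 reads (28.6 to 54.5) and 60 reads (45.8 to 77.2) overlap. The last part includes the start position at nt 18172, with 42 reads in NPCs and 0 in ESCs. The middle part includes the bins at nt 11001 to 11500 and nt 12501 to 13000. There 82.8% and 92.0% of start positions had a sequence found once in the genome. The part of either in the difference was not tested. Density did not decline steadily toward the 3′ end in either library.

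The balance along each gene was compared with other genes by the share of reads in the front 50% of the exons, counted from the 5′ end. *Malat1* had 43.8% of its reads there in ESCs (42.9 to 44.7%) and 42.6% in NPCs (42.0 to 43.3%). *Neat1* had 63.1% in ESCs (56.9 to 69.1%) and 58.6% in NPCs (55.7 to 61.4%), so its reads leaned to the front and those of *Malat1* to the back. Among the 4200 genes of at least 2000 exonic nt with at least 100 reads in ESCs, the quartiles were 39.0%, 51.4% and 62.4%. For the 5387 such genes in NPCs they were 36.9%, 49.1% and 60.5%. *Malat1* lay between the lower quartile and the median in both libraries, and *Neat1* above the upper quartile in ESCs and below it in NPCs.

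Few reads of *Malat1* lay beyond the tRNA-like element. The 500 nt before it held 871 reads in ESCs (814 to 931) and 1611 in NPCs (1533 to 1692), and the 500 nt after it held 15 in each library (8.40 to 24.7). The share beyond the element was thus 1.69% in ESCs (0.951 to 2.78%) and 0.923% in NPCs (0.517 to 1.52%). The share depends on the window, since with 250 nt on each side it was 4.76% in ESCs and 5.82% in NPCs, and by start positions it was 6.71% and 6.15%. In either library 0 reads crossed the first base of the element (0 to 3.69), whether 1, 5 or 10 bases were required on each side. From 201 to 700 nt before the element the reads crossing a base ran from 0 to 395 in ESCs (median 89) and from 0 to 523 in NPCs (median 179), so a base without reads was not particular to the element.

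Reads thinned out before they reached the element. From 201 to 500 nt before it, 806 reads began in ESCs and 1523 in NPCs, from 101 to 200 nt before it 62 and 88, and in the last 100 nt 3 and 0. The nearest read ended 19 nt short of the element in ESCs and 69 nt short in NPCs, so the absence of crossing reads follows from the empty stretch before the element and does not place an end at its first base. A read begins at the 5′ end of a fragment that passed a size selection, and the part of this selection in the thinning was not tested. Within the element itself 1 read began in ESCs and 0 in NPCs. The authors also removed reads that met repeat and tRNA regions, so these counts are no measure of mascRNA.

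Beyond the element of *Malat1* the reads faded. From 501 to 1000 nt after it there were 7 reads in ESCs and 4 in NPCs, and from 1001 to 5000 nt after it 3 and 5. In reads per kb, that is 30.0, 14.0 and 0.75 in ESCs and 30.0, 8.00 and 1.25 in NPCs over the 3 successive windows. The last window holds a 500 nt bin in which only 50.4% of start positions had a sequence found once in the genome. The part of the repeat filtering in the fading was not tested. The 10000 nt after the annotated end held 19 reads on the *Malat1* strand in ESCs and 16 in NPCs. The ratio of NPC to ESC was 1.80 in the 500 nt before the element (1.65 to 1.95) and 0.971 in the 500 nt after it (0.442 to 2.13), and these intervals overlap.

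**Figure D3:**
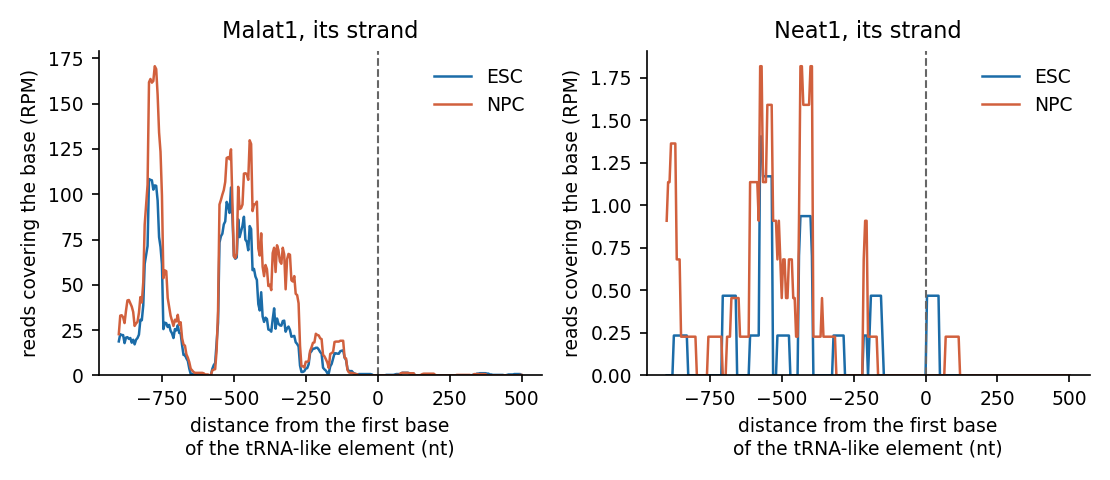
Reads covering each base (y axis, RPM, a point every 5 nt) by distance from the first base of the tRNA-like element (x axis, nt; dashed line at 0) on the strand of *Malat1* (left) and *Neat1* (right), in 1 ESC library (blue) and 1 NPC library (orange). The y axes differ. Coverage of *Malat1* falls to near 0 before the element in both libraries and is near 0 also at places farther upstream. *Neat1* has at most 6 reads over a base in ESCs and 8 in NPCs before the element. Past the first base of the element it has at most 2 in ESCs, within the element, and 1 in NPCs, after the element.

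*Neat1* had too few reads at its end for the same statement. The 500 nt before its element held 8 reads in ESCs (3.45 to 15.8) and 15 in NPCs (8.40 to 24.7), and the 500 nt after it 0 and 1. The share beyond the element was 0% in ESCs with an upper bound of 36.9%, and 6.25% in NPCs (0.158 to 30.2%). Again 0 reads crossed the first base, but a median of 0 in ESCs and 1 in NPCs crossed a base from 201 to 700 nt before it, so a stop was not detectable at this depth. In ESCs 2 reads began at the second base of the element, and none did in NPCs. From 1001 to 5000 nt after the element there were 0 reads in ESCs and 11 in NPCs.

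Reads on the opposite strand were rare. *Malat1* had 2 opposite reads in ESCs, both at one position at nt 2511, and 0 in NPCs, or 0.0170% (0.00206 to 0.0615%) and 0% (0 to 0.0160%) of its reads. *Neat1* had 1 opposite read in each library, at nt 17797 in ESCs and nt 17783 in NPCs. That is 0.391% of its reads in ESCs (0.00989 to 2.16%) and 0.0829% in NPCs (0.00210 to 0.461%). *Gm20417*, annotated on the opposite strand inside *Malat1*, had 0 reads in either library. Within 500 nt of either element there were 0 opposite reads.

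The space between the genes set the level around them. Over its 22036 nt the strand of the genes had 0.908 reads per kb in ESCs (20 reads) and 1.63 in NPCs (36 reads), against 12.3 and 58.0 per kb within *Neat1*. The other strand there had 2.04 reads per kb in ESCs (45 reads) and 0.953 in NPCs (21 reads). These densities use all positions and are not corrected for filtered repeat regions. Between the genes, the share of start positions with a sequence found once in the genome fell to 61.4% in a bin, against 82.8% at the lowest within *Neat1*. In the 5000 nt upstream of *Neat1* 17 reads in ESCs and 4 in NPCs lay on its own strand, and 32 and 14 on the other. *Frmd8*, annotated on the strand of *Neat1*, reaches only the 500 nt bins farthest from it, which held 1 and 0 reads in either library. *Gm9783* is annotated on the other strand there, and its exons had 0 reads in either library. Over both stretches the opposite strand totalled 77 reads in ESCs and 35 in NPCs, a ratio of 0.441 (0.287 to 0.666), lower than that of either gene.

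Genes for the proteins that meet these RNAs were examined from 3 lists. Their proteins come from mRNAs with poly(A) tails, which the oligo(dT) step depletes, so their NPA reads are not their mRNA levels. Of 28 genes for paraspeckle proteins, 6 were more than 2-fold higher in NPCs and 1 in ESCs. These shares of 21.4% and 3.57% stand beside 24.6% and 12.8% over all genes. The median log2 ratio was 0.40, beside 0.34 over all genes. *Hnrnpk*, *Hnrnpf* and *Hnrnpa1*, which encode proteins that bind nuclear RNA, had the highest levels, with *Hnrnpk* at 55.6 RPKM in ESCs and 108 RPKM in NPCs. The largest ratio was that of *Rbmx*, an RNA-binding protein gene with 10 reads in ESCs and 99 in NPCs (9.61, 5.01 to 20.7). Of the core proteins, named after their values were seen, *Sfpq* had 237 and 1033 reads, *Nono* 956 and 1018, and *Pspc1* 253 and 200.

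Of 23 genes for nuclear speckle and SR proteins, which act in splicing, 5 were more than 2-fold higher in NPCs and 0 in ESCs, with a median log2 ratio of 0.54. *Srsf1*, an SR splicing factor, had 26.4 RPKM in ESCs and 90.6 in NPCs. *Srsf2* had 42.3 and 80.5 RPKM, and *Srsf6* 33.1 and 80.3 RPKM. *Prpf4b*, a kinase of splicing factors, had the largest ratio, 3.97 (3.26 to 4.85), and *Srsf1* the next, 3.43 (3.14 to 3.75). The share past 2-fold in NPCs, 21.7%, was near the 24.6% of all genes, and the 0 in ESCs stands beside 12.8% of all genes.

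Of 13 genes for proteins that process tRNA-type ends, 2 were more than 2-fold higher in NPCs and 1 in ESCs. These shares of 15.4% and 7.69% stand beside 24.6% and 12.8% over all genes, and the median log2 ratio was 0.49. *Pop4* and *Rpp30*, which encode subunits of RNase P, had 9.45 and 9.73 RPKM in ESCs and 21.3 and 13.8 RPKM in NPCs. *Trnt1*, the enzyme that adds CCA to tRNA ends, had 8.90 and 16.9 RPKM. *Pop4* had the largest ratio among those with at least 100 reads, 2.26 (1.60 to 3.22), and *Rpp14*, another subunit gene, the next, 1.99 (1.45 to 2.77).

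Other long noncoding RNAs were taken from a list of their own. It includes snoRNA hosts, and the place of its RNAs in the cell was not checked. Of 16 listed, 12 were found by symbol and 9 had at least 10 reads. Of these 2 were more than 2-fold higher in NPCs and 1 in ESCs, or 22.2% and 11.1%, beside 24.6% and 12.8% over all genes. Their median log2 ratio was -0.31, which turned to 0.18 with no minimum of reads. The value of -0.31 is that of a gene with 11 reads in ESCs and 9 in NPCs. The highest were the snoRNA hosts *Snhg1* with 12152 RPKM in ESCs and 6424 in NPCs, *Snhg12* with 9831 and 1652, and *Gas5* with 2062 and 1107. *H19*, an imprinted RNA of the early embryo, had 9.87 and 27.9 RPKM and a ratio of 2.83 (2.24 to 3.58). *Xist* had 2 reads in ESCs and 5 in NPCs. Both *Malat1* and *Neat1* lay above the median of this list and of the protein lists.

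**Figure D4:**
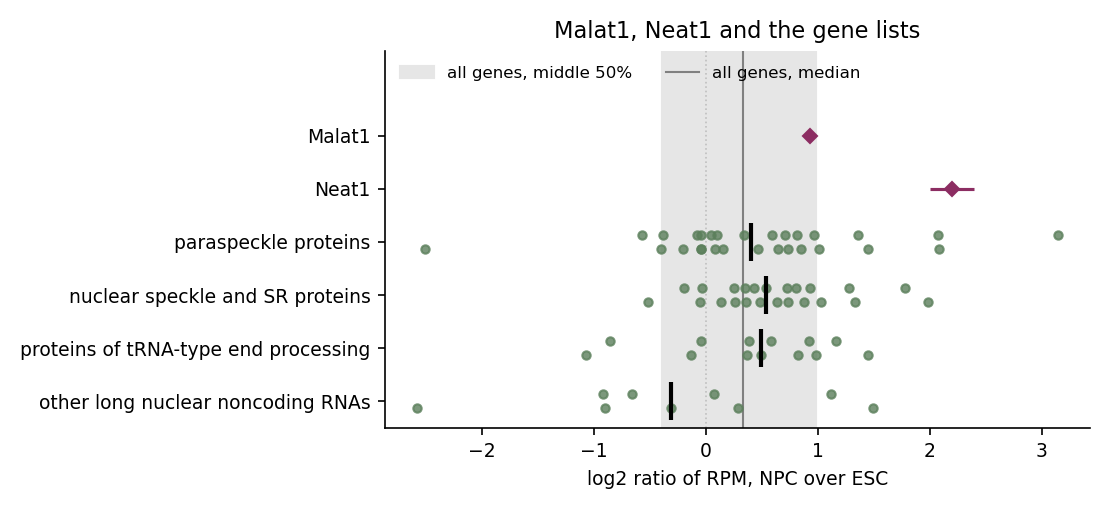
Log2 ratio of RPM of NPC over ESC (x axis) for *Malat1* and *Neat1* (diamonds with 95% counting intervals) and for the genes of each list with at least 10 reads (circles, 1 read added in each library; black bars are list medians). The grey band and line are the middle 50% and the median of all 14859 genes. *Malat1* lies within the band near its upper edge, *Neat1* beyond it, and the medians of the protein lists close to that of all genes.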

How the data were processed

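NPA RNA was sequenced on the SOLiD platform, 1 library per cell type. According to the methods, the authors removed poly(A) RNA and ribosomal RNA, fragmented the rest with RNase III, size-selected the ligated products and amplified them by PCR. Reads were aligned to mm9 with Bowtie (both named in the submitters' processing notes, version not given in the sources used here). A read with several best placements was kept at one of them, and reads on the mitochondrial chromosome, ribosomal sequences and Repeat Masker or tRNA regions were filtered out. The authors deposited 1 line per read, with start, end, strand and 48 nt of sequence. Intervals shorter than 48 nt made up 3.77% of reads in ESCs and 4.23% in NPCs and were kept as they stand.

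Genes were taken from GENCODE M1. A gene's count is the number of reads on its strand with at least 1 base in its exons, and bins count the 5′ end of a read. RPM and RPKM use the library totals. Log2 ratios over lists and over all genes add 1 read in each library, for genes with at least 10 reads in both together, while ratios of single genes add none. The cell types were not tested against each other, since each has 1 library. The 48 nt of each read in the region were searched in mm9 on either strand, and 98.0 to 98.9% of the reads of *Malat1* and *Neat1* had a sequence that occurs once. The search for the tRNA-like element first asked for at least 4 T stem pairs and an acceptor stem 40 to 75 bases before the motif. It found none at *Neat1* and, at *Malat1*, a candidate downstream of the gene in which 0 reads began, so 5 pairs and 30 to 75 bases were set after the data were seen. The share of masked bases per bin was not analysed here.

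The named genes are both RNAs, the 3 genes of each list with the highest summed RPKM, the 2 with the largest log2 ratio among those with at least 100 reads, and the 3 nearest genes. One gene that this rule picks is not reported here. *Neat1* and *Malat1* bins are named by their 3 highest counts, others for a stated extreme. *Gm15500*, *Xist*, the neighbouring genes and the neural markers were named after their values were seen. The genes, lists and marker genes were chosen with earlier results of these data known. Counting, ratios and the element search were tested on simulated data. Python 3.11.15, NumPy 2.4.6, SciPy 1.17.1, pandas 2.3.3, Biopython 1.88 and matplotlib 3.10.9 were used.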

Additional observations from a re-analysis of the deposited data

How the results depend on the processing

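No paired analysis was possible because each cell type has 1 library, and no replicate could be left out. The ratio of both genes was above 1 under all 8 alternatives, but by start positions the interval of *Malat1* held 1. Scaled by the median gene, the ratio was 1.51 for *Malat1* and 3.63 for *Neat1*, and *Malat1* had 1.72 when the 10 genes with the most reads were left out of the totals. With each start position counted once (the number of positions bounds this count), the ratio was 1.03 for *Malat1* (0.971 to 1.10) and 3.07 for *Neat1*. The median log2 ratio over all genes was then 0.0047, and 69.2% of the *Malat1* bins were above 1. The density of the first 1000 nt of *Malat1* was then 0.384 times the rest in ESCs and 0.372 in NPCs, and, without the empty stretches (added after seeing the data), 0.272 and 0.247. The shared span of *Neat1* was 2.13 times denser in NPCs by start positions.

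For *Malat1* the share beyond the element was 4.76% in ESCs and 5.82% in NPCs with windows of 250 nt, 0.931% and 0.508% with 1000 nt, and 6.71% and 6.15% by start positions. The share of *Malat1* in its front 50% was 46.7% and 46.2% by start positions. The first of 3 equal parts held 30.2% and 29.4% of *Malat1* reads and 54.5% and 49.7% of *Neat1* reads. By start positions *Malat1* ranked 103 in ESCs and 28 in NPCs among all genes.

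By start positions, the genes more than 2-fold higher in NPCs numbered 2 for paraspeckle proteins, 1 for speckle proteins, 0 for end processing and 0 for other noncoding RNAs, beside 12.0% of all genes. In ESCs 0 other noncoding RNAs were higher, also beside 12.0% of all genes. At 1.5-fold, 13 paraspeckle, 11 speckle and 6 end processing genes were higher in NPCs, and 2 end processing genes and 4 noncoding RNAs in ESCs, beside 39.8% and 20.3% of all genes. Scaled by the median gene, 2 speckle genes, 1 end processing gene and 1 noncoding RNA were higher in NPCs, and 2 end processing genes and 3 noncoding RNAs in ESCs, beside 15.7% and 18.6%. With at least 50 reads 0 paraspeckle genes were higher in ESCs, beside 9.94% of all genes. With no minimum 4 of the 12 annotated noncoding RNAs were higher in NPCs, beside 12.5% of all genes. The median log2 ratio turned to 0.18 for the noncoding RNAs with no minimum and to -0.11 for the fibroblast markers with at least 50 reads. In all, 145 of 218 alternative values stayed within the counting interval of their result, within 1.5 times for counts or within 0.1 for list medians, and the causes of the others were not tested.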
